A study of Caenorhabditis japonica with 3 samples.

Results

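The 363 genes described here each have exactly 2 listed 3′ ends that lie close together, less than 100 location units apart within the gene. They are 363 of the 480 genes with 2 listed ends and of the 3955 genes in the table, and they hold 726 of its 4619 ends. The members were chosen by the location numbers alone, and no read count entered the choice. The data are CEL-Seq read counts from single embryos of *Caenorhabditis japonica*, a nematode related to *C. elegans*, and CEL-Seq is a method that barcodes the polyA RNA of each embryo and reads it from the 3′ end. One pooled library holds each time window. The data hold 16 embryos of the early library (of 1, 2 and 4 cells, then 10 to 130 minutes after the 4-cell stage). They hold 16 of the middle library (140 to 290 minutes) and 14 of the late library (300 to 430 minutes), with 1 embryo per time at 10-minute steps. The label of the late library also names extra samples for 330 and 340 minutes. The labels name no treatment or mutation: embryos came out of cut adults, and those past the 4-cell stage developed at 20 °C until they were frozen. Since every library is a different window, library and window cannot be told apart in any comparison below.

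The 3′ end of a messenger RNA is made by cleavage of the nascent transcript a short way after a polyadenylation signal, followed by the addition of a polyA tail. Many genes have several such sites, and the choice among them, called alternative polyadenylation, can change which regulatory sequences the 3′ untranslated region carries. Sites that lie close together leave nearly the same untranslated region, while widely spaced sites can add or remove long stretches of it. During early animal development the embryo also passes from maternally supplied transcripts to transcripts of its own genome, so the ends of a gene's transcripts can come from different sources at different ages.

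Each end has a location number in its gene. No source says where that number starts or in which direction it runs, so the ends are called the higher-location and the lower-location end. The genome build is not given in the sources used here, and the files pair the gene identifiers with no names. In the 363 pairs the distance ran from 21 to 96, with a median of 34 and quartiles of 27 and 53. Most pairs were tightly spaced, since 129 lay 20 to 29 apart and 133 lay 30 to 49 apart, while 70 lay 50 to 74 and 31 lay 75 to 99 apart. The smallest distance was that of CJA04584, with ends at 4230 and 4251, and the largest that of CJA10737, with ends at 870 and 966. The member next to the limit, CJA11907, had ends 95 apart, and the nearest pairs outside it, CJA08031 and CJA17773, had ends 101 and 102 apart. Just inside the limit, the main end held 94.2% of the pair's reads in CJA11907 and 71.3% in CJA10737, and just outside it 54.7% in CJA08031 and 71.3% in CJA17773.

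Embryos had a median of 61827 reads in the listed genes (lowest 1719, highest 454691), and 14 embryos had under 0.25 of that median (5 early, 4 middle and 5 late). The member genes took 11.2% to 16.8% of the reads of an embryo. Their 2 ends together held 763743 reads, from 209 to 19653 per gene with a median of 1097, and between 64.7% and 99.7% of the gene's own total (median 94.4%). In an embryo, 4 to 351 members (median 265.5) had the 5 pair reads that were required for a share. A share is the percentage of the pair's reads that fell on 1 of its ends. The table holds selected genes and no molecular identifiers are named, so its totals are not the full depth and the intervals below cover counting error only.

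In most members 1 end held more reads than the other by more than counting error, though the margin varied widely. Over the summed reads, the main end (the one with more reads) held between 50% and 95.8% of the pair, with a median of 74.9% and quartiles of 63.0% and 86.9%. No end in the deposited table has less than 4.04% of its gene's reads or fewer than 98 reads, which limits how high a main share could be. It held 90% or more in 64 members, 75% to under 90% in 116, 60% to under 75% in 112 and less than 60% in 71. For 33 members the 95% exact binomial interval of the main share included 50%, so counting error alone left the order of the ends undetermined. The main end was the higher-location end in 189 members (52.1%), so neither position was favoured by much. By distance, the higher-location end was the main one in 47.3% of pairs 20 to 29 apart, 61.7% of those 30 to 49 apart, 44.3% of those 50 to 74 apart and 48.4% of those 75 to 99 apart.

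**Figure D1:**
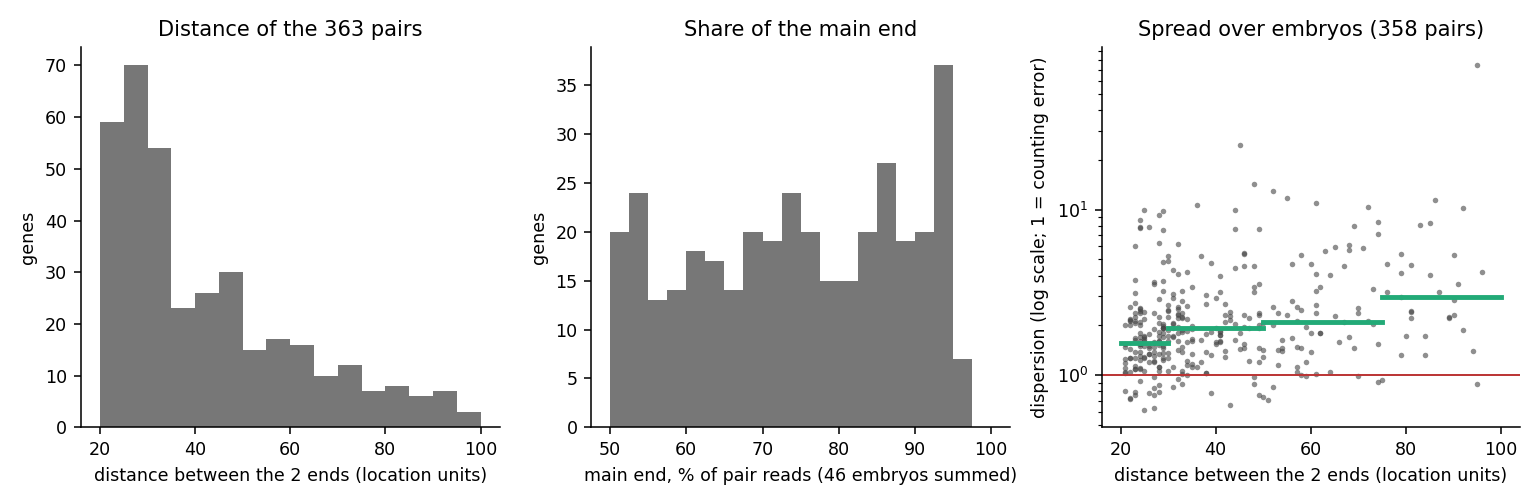
The left panel counts genes by the distance between their 2 ends, the middle panel by the share of the main end in the summed reads, and the right panel plots the dispersion of the share over embryos against distance, with the median of each distance class as a green bar and counting error as a red line at 1. The pairs cluster at short distances, main shares fill the range from 50% to 95.8%, and the median dispersion is 1.58 in the closest class and 2.95 in the widest.

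The main end was the same in nearly every embryo for most pairs. It was chosen on the summed reads of the same embryos, so a majority of embryos above 50% is partly built in. Of the 358 members with a share in at least 10 embryos, 214 (59.8%) had the main end above 50% in at least 90% of their embryos, and in 136 it was above 50% in all of them. Counted over all single values, 8845 of 10009 embryo shares (88.4%) had the main end above 50%. Among the pairs whose ends lay 100 or more apart, 52 of 115 (45.2%) reached the same level and 82.6% of the single values did. These wider pairs also had lower main shares (median 70.9% against 74.9% in the members) and fewer pair reads (median 778 against 1097). At the other extreme, the main end lay above 50% in fewer than 75% of embryos in 82 members, and in 9 members it did so in under 50% of the embryos, although the summed reads favoured it.

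The 2 members with most reads kept the same main end in most embryos, though their shares varied by more than counting error. CJA20765, with ends at 774 and 820, had 19653 pair reads, and its lower-location end held 82.7% of them (95% exact interval 82.1 to 83.2). In single embryos that end ranged from 67.5% to 100%, with a median of 83.1% and a mean of 82.5% ± 6.31 (SD, n = 45), and it stayed above 50% in all 45. Its dispersion, the spread over embryos in units of counting variance, was 5.42. CJA13715, with ends at 647 and 739, had 14480 pair reads and a main share of 78.2% (interval 77.5 to 78.8). Here the main end lay above 50% in 39 of 42 embryos, between 40% and 100%, with a dispersion of 10.2. The wider pair scattered more, and its share moved with the gene's total at a given age (adjusted p = 0.000742, by the test described below).

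The steadiest pairs among the 194 members with at least 1000 reads varied no more than counting error. The dispersion is the Pearson dispersion about 1 constant share, which is 1 where reads scatter by counting error only and larger where they scatter by more. Since no molecular identifiers are named, the excess covers amplification copies and differences between embryos alike, and their parts were not tested. CJA07762, with ends at 5259 and 5282, had a dispersion of 0.764. Its lower-location end held 93.6% of 2361 reads and ranged from 85.7% to 100% in 29 embryos. CJA11813, with ends at 4830 and 4853, had a dispersion of 0.796 and a main share of 73.5%, between 66.1% and 100% in 24 embryos. In the early window CJA11813 had 13 pair reads in all and 1 embryo with a share, so its steadiness describes the middle and late windows. The highest main shares were those of CJA09491, at 95.8% (interval 95.1 to 96.4), and CJA00932, at 95.7% (interval 95.1 to 96.3). CJA00932 had a dispersion of 1.15 and never fell under 83.3%, whereas the main end of CJA09491 reached down to 63.6% and its dispersion was 8.05. These 2 pairs had nearly the same main share and differed in how steady it was.

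Other pairs used both ends about equally in the sum, by different routes. CJA10586, with ends at 1350 and 1392, had a main share of 50.1% (interval 48.7 to 51.5) and a dispersion of 2.33. Its higher-location end had a median of 45.3% in early, 43.0% in middle and 46.7% in late embryos, so the windows had similar medians. Single embryos ran from 0% to 77.8% in early, 31.4% to 70% in middle and 38.6% to 52.2% in late embryos. CJA06110, with ends at 2118 and 2163, had a main share of 50.3% (interval 49.1 to 51.5) and the second highest dispersion of the deep members, 24.5. Its embryos ran from 13.2% to 81.2% for the higher-location end, and they were low early and high late, as described below.

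The pair with the largest dispersion, CJA03982, switched between its ends from embryo to embryo. Its ends lie at 571 and 666 and had 11004 reads, of which the higher-location end held 62.2% (interval 61.2 to 63.1), with a dispersion of 74.97. The share of the higher-location end ran from 8.91% to 100% (median 66.8%, n = 16) in early, from 9.88% to 93.0% (median 63.5%, n = 14) in middle and from 0% to 68.9% (median 26.7%, n = 12) in late embryos. Of the 42 embryos, 10 had under 25%, 21 had 25% to 75% and 11 had over 75%. Neighbouring times could stand far apart: the 250-minute embryo had 26.9% with 26 pair reads, and the 260-minute embryo 72.2% with 1064. The 50-minute embryo had 27.1% with 794 pair reads and the 60-minute embryo 92.1% with 189. The ranges of the 3 windows overlapped, but no late embryo exceeded 68.9% and the late median was the lowest. In the summed reads that end held 62.4% in early, 75.6% in middle and 44.3% in late embryos. Its share was not called in middle against early (adjusted p = 0.30) or late against middle embryos (adjusted p = 0.081), by the quasi-binomial test described next. Nor was it called in late against early embryos by that test (adjusted p = 0.20).

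**Figure D2:**
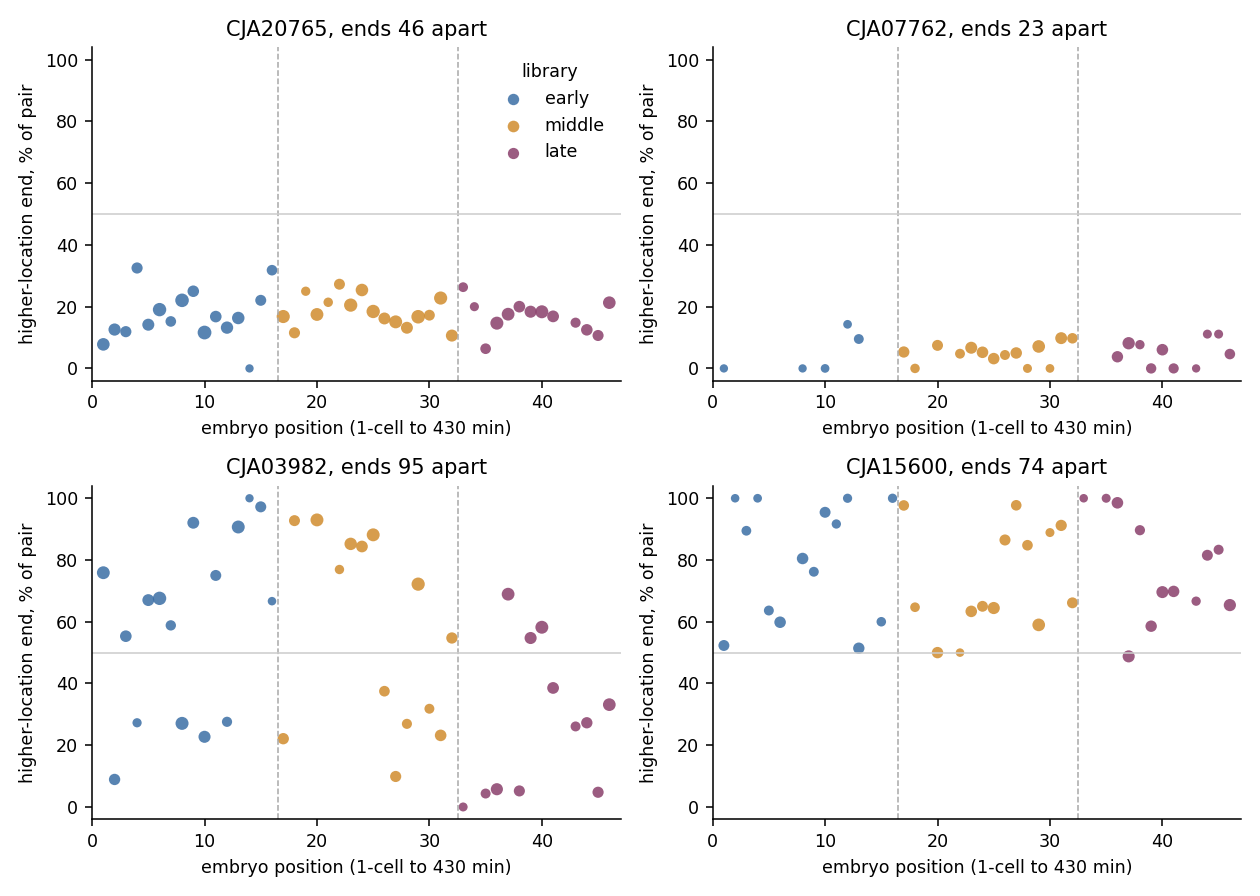
The percentage of pair reads on the higher-location end (y axis) is plotted for single embryos with at least 5 pair reads by their position in the time course (x axis), coloured by library, with larger points for more reads and dashed lines at the library borders. CJA20765 and CJA07762 keep low values in all windows, CJA03982 ranges from 0% to 100%, and CJA15600 has embryos near 50% and near 100% in every window.

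Within the members, the dispersion grew with distance and with depth. The median dispersion was 1.58 in pairs 20 to 29 apart, 1.92 at 30 to 49, 2.101 at 50 to 74 and 2.95 at 75 to 99. Among the members with at least 1000 reads it was 1.81, 2.17, 3.72 and 4.61 in the same order of distance. In the pairs 100 or more apart with at least 1000 reads it was 3.97, below that of the members 75 to 99 apart. The pairs 100 or more apart had a median of 3.05, against a median of 1.86 over the members with at least 10 embryos. Of these members, 160 (44.7%) had a dispersion above 2, 41 above 5 and 31 below 1. The SD of the main share over embryos had a median of 13.0 percentage points in the members, and 17.1 in the pairs 100 or more apart. It was 15.06 in members 50 to 74 apart and 15.05 in those 75 to 99 apart. Within pairs, the mean squared residual (in units of counting variance) was 1.35 in embryos with 5 to 9 pair reads and 10.1 in those with 200 or more. The median absolute residual was 12.9 points at 5 to 9 reads and 3.53 points at 200 or more. The shares of deep embryos thus still scattered by more than the counting error of their reads.

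Whether the shares shifted with stage was tested by logistic regression of the reads of the higher-location against the lower-location end on embryo position, with a quasi-likelihood F test. Position counts the 3 cell stages and then 1 step per 10 minutes. Of the 363 members, 294 were tested; 64 had an end under 10% of the pair's reads and 5 had fewer than 10 embryos. At an adjusted p under 0.05 (Benjamini-Hochberg over the 590 tests of the whole table), 48 members were called, 26 with a rising and 22 with a falling share of the higher-location end. That is 16.3% of the members tested, against 16.1% of all tests, so close pairs shifted about as often as the rest of the table. The fitted change over the course in the called members had a median of 21.1 points, between 6.85 and 59.2. In 27 of the 48 the main end gained and in 21 it lost, and in 18 the fitted line crossed 50%. The called pairs had more reads (median 1715.5) and more embryos with a share (median 34) than the pairs not called (789 reads and 25 embryos), so calls were more frequent in deeper pairs. By distance, 12 of 98 tested pairs were called at 20 to 29 apart, 16 of 109 at 30 to 49, 14 of 60 at 50 to 74 and 6 of 27 at 75 to 99.

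CJA06110 had the largest rise. Its higher-location end had a lowest share of 13.2%, a median of 30.3% and a highest of 59.3% in early embryos (n = 15). It had 33.2%, 61.3% and 75% in middle embryos (n = 14), and 47.6%, 70.0% and 81.2% in late embryos (n = 10), in the same order. The middle and late embryos overlapped widely and the early ones lay mostly below them. The fitted share was 79.8% at the last and 25.6% at the first position (adjusted p = 1.63e-13). CJA23822, with ends at 6851 and 6922, had a lowest share of 0%, a median of 27.8% and a highest of 91.7% in early embryos (n = 10). It had 50%, 71.9% and 100% in middle (n = 12) and 53.3%, 63.4% and 90.9% in late embryos (n = 9). A single early embryo, at 90 minutes, lay above 50%. The fitted change was 52.9 points (adjusted p = 8.78e-05).

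Among the falling shares, CJA36188, with ends at 4986 and 5030, had the largest change. Its higher-location end had a lowest share of 71.6%, a median of 85.9% and a highest of 100% in early embryos (n = 11), and 33.3%, 44.4% and 55.6% in middle embryos (n = 11). In late embryos (n = 11) it had 22.2%, 38.5% and 83.3%. The early and middle embryos did not overlap, and the fitted share was 24.8% at the last and 84.0% at the first position (adjusted p = 1.16e-06). CJA32122, with ends at 3797 and 3821, had 39.3%, 71.6% and 87.5% in early (n = 9), 30.8%, 60% and 94.4% in middle (n = 7) and 9.09%, 25% and 40% in late embryos (n = 9). All 9 late embryos lay below 8 of the 9 early ones. The fitted share fell by 43.5 points (adjusted p = 0.000519).

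**Figure D3:**
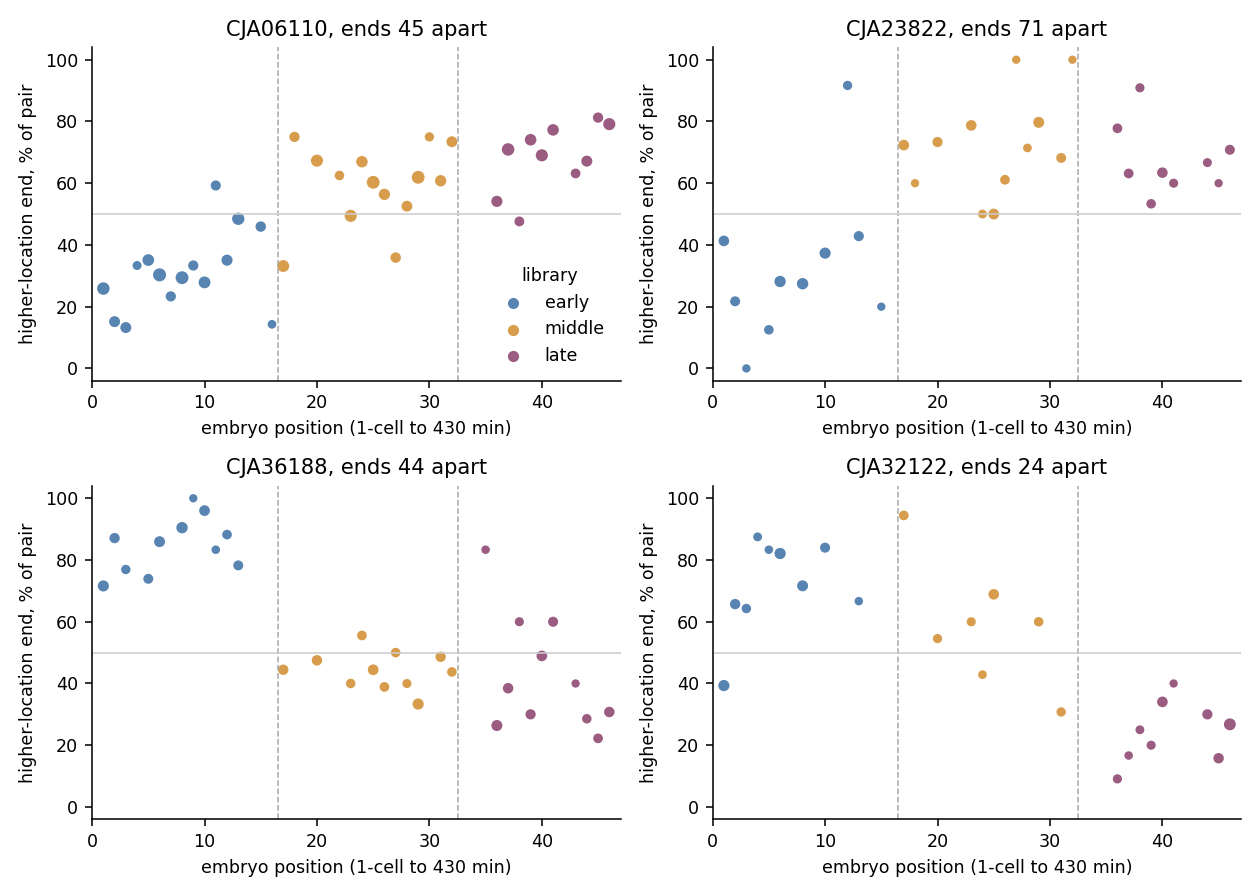
The percentage of pair reads on the higher-location end (y axis) is plotted for single embryos with at least 5 pair reads by position in the time course (x axis), coloured by library, with larger points for more reads and dashed lines at the library borders. CJA06110 and CJA23822 rise and CJA36188 and CJA32122 fall, and for CJA36188 the early embryos, at 71.6% or more, lie above all middle embryos, at 55.6% or less.

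Most of these calls were lost when the library entered the model, where position and library overlap closely. With the library as a covariate, 2 of 294 members were called, CJA06110 (adjusted p = 0.046) and CJA09327 (adjusted p = 0.0315), against 0.339% of all tests; CJA09327 is named because the count is small. Of the 48 members called over the course, 26 kept the sign of their slope in that fit and 11 had an unadjusted p under 0.05. Within 1 library, 1 of 141 members was called in the early library (0.98% of all tests there), 0 of 179 in the middle library and 0 of 93 in the late library (both 0% of all tests), by the same quasi-binomial test, with 15, 15 and 9 members at an unadjusted p under 0.05. For CJA06110 the slope was positive in each library, at 0.0752 ± 0.0196 early, 0.0444 ± 0.0257 middle and 0.0601 ± 0.0284 late (log odds per position, SE). For CJA36188 the early slope was 0.115 ± 0.0486, opposite in sign to its fall over the course, and none of its within-library slopes was called. A step between libraries at a given position was called in 13 of 246 members (4.75% of all tests), 8 of which were among the 48. By this quasi-binomial test the step was called for CJA36188 (adjusted p = 0.00807). It was also called for CJA08870, CJA04221 and CJA10478, named below (adjusted p = 0.00807, 0.00807 and 4.67e-05). It was not called for CJA23822, CJA32122 or CJA06110 (adjusted p = 0.066, 0.18 and 0.51). The slope differed between libraries in 6 of 236 members (2.89% of all tests). Within the early and the middle library, time and barcode number cannot be told apart either.

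The number of calls also depended on how the spread was modelled. With weights that let the spread grow with depth, 30 members were called, 10.2% against 12.2% of all tests, and 29 of them were among the 48. A rank correlation of the share with position called 24 members, 19 of them among the 48, against 10.3% of all tests, and edgeR's diffSpliceDGE called 1, against 1.86% of all tests. All 4 members named above were called with the depth weights.

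Between the middle and early windows, 42 of 248 members differed in share (21 up and 21 down), 16.9% against 17.7% of all tests, by the same regression with the window as a factor. CJA08870, with ends at 2959 and 3014, had the largest rise of the higher-location end. It had a lowest share of 63.4%, a median of 78.5% and a highest of 100% in middle embryos (n = 13), against 12.5%, 35.4% and 75% in early embryos (n = 12). Its mean was 79.5% ± 9.84 in middle and 39.7% ± 17.0 in early embryos (SD; adjusted p = 3.38e-07), and the windows overlapped slightly. CJA23822 averaged 72.1% ± 16.3 in middle (n = 12) and 32.3% ± 24.7 in early embryos (n = 10), a difference of 39.8 points (adjusted p = 4.35e-06). The largest fall was that of CJA36188, which averaged 44.2% ± 6.12 in middle (n = 11) and 84.7% ± 8.98 in early embryos (n = 11; adjusted p = 1.16e-07). CJA04841, with ends at 4046 and 4096, averaged 65.3% ± 14.4 in middle (n = 8) and 87.5% ± 8.46 in early embryos (n = 9; adjusted p = 0.0159). CJA04841 was not called when at least 10 reads were required (adjusted p = 0.071). With 8 embryos on each side of the border, 7 of 85 members were called, against 4.85% of all tests.

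Fewer shares differed between the late and middle windows: 9 of 274 members (5 up and 4 down), 3.28% against 3.6% of all tests. CJA10478, a deep pair of 13755 reads with ends at 1679 and 1708, fell to a mean of 37.8% ± 9.26 in late embryos (n = 11), against 49.3% ± 6.09 in middle embryos (n = 14; adjusted p = 0.00334). In early embryos it averaged 39.5% ± 10.2 (n = 15), so its middle window was the high one. CJA32122 averaged 24.2% ± 9.75 in late (n = 9) and 58.8% ± 20.1 in middle embryos (n = 7; adjusted p = 0.0295). Of the rises, CJA04221, with ends at 1969 and 2029, averaged 43.2% ± 17.3 in late (n = 9) and 26.3% ± 13.9 in middle embryos (n = 12; adjusted p = 0.0434). CJA06110 averaged 68.4% ± 10.9 in late (n = 10) and 59.3% ± 13.1 in middle embryos (n = 14; adjusted p = 0.04998). Without the 330- and 340-minute embryos, whose columns carry an unexplained suffix, 2 members were called (0.935% of all tests), and CJA32122 was not (adjusted p = 0.0508). With depth weights the 2 members called (0.901% of all tests) were CJA32122 and CJA10478 (adjusted p = 0.0278 for each). With 8 embryos on each side of the border 0 of 200 were called by the quasi-binomial test, 18 having an unadjusted p under 0.05.

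Between the late and early windows 49 of 250 members differed (29 up and 20 down), 19.6% against 20.2% of all tests, and 43 did so with depth weights (16.7% of all tests). CJA08870 averaged 81.6% ± 8.69 in late (n = 10) and 39.7% ± 17.0 in early embryos (n = 12; adjusted p = 7.49e-06). CJA28681, with ends at 2194 and 2247, averaged 71.1% ± 18.2 in late (n = 4) and 33.2% ± 8.83 in early embryos (n = 12; adjusted p = 0.0109). Only 4 late embryos of CJA28681 had a share, from 55.6% to 90%, all above the early range of 17.8% to 44.4%. CJA32122 averaged 24.2% ± 9.75 in late (n = 9) and 71.6% ± 15.0 in early embryos (n = 9; adjusted p = 7.38e-05), and CJA36188 averaged 42.6% ± 18.7 in late (n = 11) and 84.7% ± 8.98 in early embryos (n = 11; adjusted p = 6.29e-09). CJA08870, CJA32122 and CJA36188 recur among the comparisons, which share their embryos.

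Most members kept their main end in every window. In 304 members with a share in at least 3 embryos of every window, the main end of the summed reads was the same in all 3 windows in 260 (85.5%). In 13 members the order of the ends was reversed between windows with both 95% exact intervals on opposite sides of 50%. These intervals cover counting error only and leave out the spread between embryos. CJA03982, whose share was called in no comparison of windows, is among them. No such count was made for the wider pairs. Of these 13, 10 reversed between late and early, 9 between middle and early and 2 between late and middle, and 8 had a called trend. For CJA08870 the higher-location end held 41.9% of the early, 81.3% of the middle and 78.6% of the late reads. For CJA32122 it held 66.8% of the early, 62.5% of the middle and 26.2% of the late reads. These sums give deep embryos more weight than the embryo means above.

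The gene totals of the members were called more often than their shares, though by a different test and in other sets of members. Of the 363 members, 262 passed the filter on low counts in edgeR, and 145 were called between middle and early (background 60.6% of all genes tested), 77 between late and middle (32.1%) and 174 between late and early (67.9%). The corresponding shares of the members tested were 55.3%, 29.4% and 66.4%, so none of them stood above the table. Their split by direction depends on scaling: with TMM factors 98 rose and 47 fell in middle against early, while with DESeq2 size factors 62 rose and 107 fell. In late against early the split was 111 and 63 with TMM factors, and 76 and 110 with DESeq2 size factors. In late against middle 47 rose and 30 fell with TMM factors, while 35 rose and 59 fell with library size alone and 26 rose and 56 fell without the 330- and 340-minute embryos. The median log2 fold change of all genes was 0.16 with TMM and -0.49 with DESeq2 size factors in middle against early, and 0.12 and -0.64 in late against early. Directions of small level changes are therefore relative to the scaling, while shares within a pair do not use it.

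The largest level changes were far beyond that. CJA00671 had 5029 reads in late and 2 in early embryos, and averaged 4720 ± 2286 CPM (counts scaled to the same number of reads in every embryo) in late (n = 14) and 1.25 ± 4.24 in early embryos (n = 16; edgeR adjusted p = 1.41e-18). The ratio of its summed reads, scaled by the window totals, was 2618 with a 95% exact counting interval of 724 to 21623. CJA06186 had 1713 reads in late and 0 in early embryos (edgeR adjusted p = 9.5e-13). With the early window set to 3 counts it was 594-fold higher in late embryos, and the 95% exact counting interval began at 483. Against the middle window, where it had 28 reads, it was 71.2-fold higher (interval 49.1 to 107.5; edgeR adjusted p = 1.44e-09). CJA11389 was 31.8-fold higher in late than in middle embryos (interval 23.9 to 43.2; edgeR adjusted p = 5.28e-08). In middle against early embryos, CJA42882 had 3893 and 10 reads (edgeR adjusted p = 4.83e-17), and CJA04595 had 692 and 0 reads (edgeR adjusted p = 3.94e-11). With the early window set to 3 counts CJA04595 was 206-fold higher in middle embryos, and the 95% exact counting interval began at 167.

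Among the falls, CJA17475 averaged 49.96 ± 57.4 CPM in late and 1867 ± 2119 in early embryos, a log2 fold change of -4.87 (edgeR adjusted p = 4.13e-09). CJA11892 had 14 reads in late and 1813 in early embryos (log2 fold change -6.75, edgeR adjusted p = 9.66e-09). CJA03251 and CJA11398 fell by 3.21 and 3.19 on the log2 scale in middle against early embryos (edgeR adjusted p = 2.08e-12 and 1.62e-10). Against the middle window, CJA11892 fell by 6.06 and CJA17475 by 2.51 in late embryos on the log2 scale (edgeR adjusted p = 6.85e-07 and 0.00148). None of these genes is among those named for a share, which says little about their shares. Only the largest called changes are named, and a gene with 0 reads in a window has no share there. The share of CJA11398 was called on the embryo axis described at the end (quasi-binomial adjusted p = 0.000234).

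The size of the share shift was weakly related to the change of the gene total, and which comparison ranked highest depended on the measure. The share test needs reads in both windows, so members nearly absent from either window were left out. In late against early embryos, 178 members were tested for both. Of these, 43 had a called share, and 24 of the 43 (55.8%) also had a called gene total, against 107 of all 178 (60.1%). In middle against early it was 12 of 36 (33.3%), against 81 of 178 (45.5%). In late against middle it was 3 of 9 (33.3%), against 51 of 197 (25.9%). Across these genes, which are no replicates, the Spearman correlation of the absolute share difference with the absolute log2 fold change was 0.17 in late against early (n = 178), 0.06 in middle against early (n = 178) and 0.08 in late against middle embryos (n = 197). The Pearson correlation ranked the comparisons otherwise, at 0.09 in late against early, 0.15 in middle against early and 0.19 in late against middle embryos. The median absolute share difference in late against early was 7.02 points in the 60 genes called up with TMM factors, 6.77 in the 47 called down and 3.91 in the 71 not called. In middle against early it was 5.26, 5.29 and 5.58 points in the same order, and in late against middle 4.53, 4.61 and 3.99 points. By location the signs were nearly even: the higher-location end gained in 94 of 178 pairs in late against early, in 89 of 178 in middle against early and in 95 of 197 in late against middle embryos. By main end, in late against middle the main end gained in 27 of 34 genes called up and in 7 of 17 called down. In late against early it gained in 38 of 60 called up and 22 of 47 called down, and in middle against early in 26 of 45 and 16 of 36. The Spearman correlation of the main end's shift with the log2 fold change across genes was 0.19 in late against early, 0.13 in middle against early and 0.18 in late against middle embryos. The main end is chosen on reads summed over all windows, so the window where a gene is high weighs most in that choice.

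**Figure D4:**
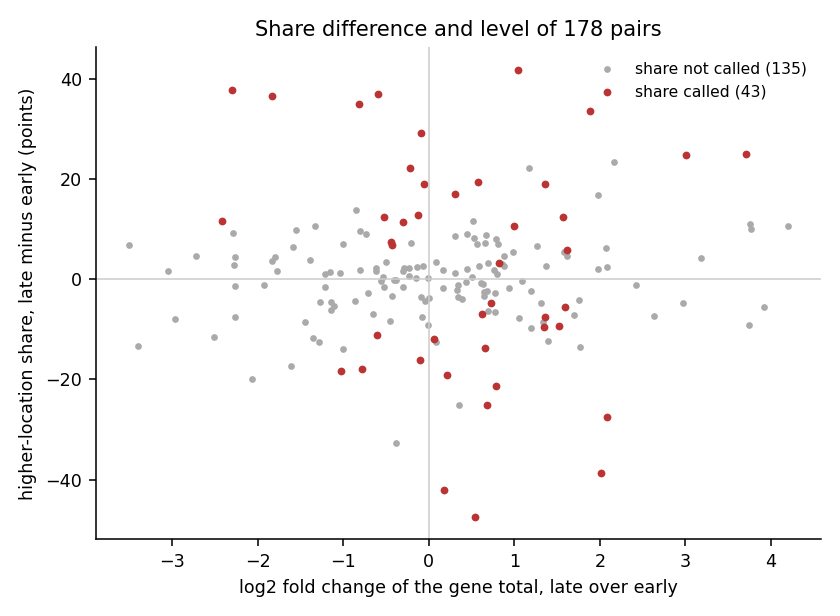
The difference in the mean share of the higher-location end, late minus early in percentage points (y axis), is plotted against the edgeR log2 fold change of the gene total, late over early (x axis), for the 178 members tested for both. Pairs with a called share difference (43, red) lie on both sides of 0 on both axes.

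The level of each end was tested by itself, with TMM factors. The filter on low counts kept both ends of 50 pairs and 1 end of 155, so the joint counts describe deep pairs. Of the 255 ends tested, 131 were called between middle and early (background 59.5% of all ends), 68 between late and middle (33.3%) and 170 between late and early (68.7%). The late against early ends split into 99 up and 71 down, and into 72 up and 95 down with DESeq2 size factors. In late against early embryos, both ends were called up in 15 of the 50 pairs, both down in 7, and in 1 pair, CJA08870, they were called in opposite directions. Its higher-location end rose by a log2 fold change of 1.87 (edgeR adjusted p = 5.99e-07), and its lower-location end fell by 0.78 on the log2 scale (edgeR adjusted p = 0.0484). The gene total of CJA08870 averaged 648 ± 396 CPM in late (n = 14) and 342 ± 137 in early embryos (n = 16; log2 fold change 1.05, edgeR adjusted p = 0.00149). Without the filter, all 363 pairs entered. Both ends were then called up in 109, both down in 59, 1 end was called in 82, and the ends of CJA03982 and CJA36188 were called in opposite directions, while those of CJA08870 were not. For middle against early the counts without the filter were 86, 47 and 99, with opposite calls in CJA36188 and CJA28175. Joint counts were made for the members only, so no background stands beside them.

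CJA36188 is a pair whose ends exchanged places between the early and the late library while its total did not pass the test. It is among the members with a called step between libraries. Its gene total averaged 391 ± 198 CPM in late (n = 14) and 327 ± 165 in early embryos (n = 16; edgeR adjusted p = 0.57), while its lower-location end had 193 of 307 pair reads in late and 67 of 427 in early embryos.

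At a given age, few shares moved with the gene's total. With the log2 CPM of the gene added to position, its term was called in 20 of 294 members, 7 positive and 13 negative, 6.8% against 6.95% of all tests. CJA21978 (ends at 5216 and 5260) and CJA03982 had the largest positive terms, 1.24 ± 0.33 and 1.24 ± 0.26 log odds of the higher-location end per log2 CPM (SE; adjusted p = 0.0105 and 0.00033). CJA03559 (ends at 892 and 941) and CJA18194 (ends at 1472 and 1540) had the largest negative ones, -1.43 ± 0.36 and -1.38 ± 0.23 (adjusted p = 0.00634 and 0.000364). In CJA18194 embryos with a higher total thus had less of the higher-location end at a given position. Between windows its share did not follow the total in this way. The end held 16.8% of the pair reads in early, 23.0% in middle and 3.49% in late embryos. The mean gene total was highest in early embryos and nearly the same in middle and late embryos, so the lowest share fell in a window of low total. With depth weights 10 of the 20 were called (3.9% of all tests), and CJA21978 was not (adjusted p = 0.23). With an axis of embryo-to-embryo differences in gene level as a covariate, 12 of 291 members were called (5.11% of all tests), and CJA03982 was not (adjusted p = 0.61).

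The balance of ends over all members was described per embryo, without a test. For each embryo, the median over members of the difference between its higher-location share and the member's share in the summed reads was taken. It had a median of 0.34 points over early, 0.09 over middle and 0.36 over late embryos, and ran from -11.2 to 4.92 points over all 46. The main end was above 50% in 82.6% to 100% of the members with a share in an embryo, with medians of 88.1% over early, 88.6% over middle and 88.1% over late embryos. Members that moved in opposite directions offset each other in these medians. The higher-location ends together held a median of 46.7% of the members' pair reads in early, 44.7% in middle and 44.3% in late embryos. The embryos farthest from 0 in the median difference, at 110 and 160 minutes, had 8 and 4 members measured.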

How the data were processed

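Read counts of 46 single *C. japonica* embryos in 3 pooled CEL-Seq libraries were used. The authors deposited whole-number counts per 3′ end and a total count per gene, and the file headers state no normalization. Among tools, HTSeq 0.5.4p3, Bowtie2 2.1.0 and CASAVA 1.8 are named in the submitters' processing notes, without their roles. The peak caller, genome build and annotation are not named in these sources. A deposited sheet links every embryo column to a time, a barcode and so a library. The columns for 330 and 340 minutes carry suffixes the sources do not explain, and the labels name extra embryos for these times. These columns have barcodes 15 and 16, while the 320- and 350-minute embryos have barcodes 3 and 6.

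Members are the genes with exactly 2 numbered ends under 100 apart. Members, lists and comparisons were chosen with earlier results of these data known. Identifiers are not paired with names in the files, so no gene list was used and no sequence is shown.

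A share needed at least 5 reads of the pair in an embryo. Shares were fitted in R 4.3.3 by logistic regression with a quasi-likelihood F test (Pearson dispersion, at least 1), over at least 10 embryos and for ends of at least 10% of the gene's end reads. Window contrasts needed at least 3 embryos per window. The gene level in the share model was log2 CPM with a prior count of 2. Gene totals and ends were tested with edgeR 4.0.16 (filterByExpr, TMM, quasi-likelihood F test). All tests are two-sided, with p-values adjusted by Benjamini and Hochberg over every test of the table. The replicate is the embryo, so p-values measure the spread between embryos, age included. Main shares have 95% exact binomial intervals. On simulated counts whose spread grew with depth, the share test called more unchanged ends than its threshold allows, so weights for such a spread were added after seeing the data.

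In each comparison the text names the 2 called members with the largest rise and the 2 with the largest fall among those with at least 100 pair reads. For steadiness it names the lowest and highest dispersions, the main shares nearest 50% and highest among members with at least 1000 pair reads, the deepest pairs and the smallest and largest distance. Alternatives were other read minima and denominators, other dispersion models and tests, the library as covariate, single libraries, other scalings, no filter on low counts, and fits without shallow embryos, cell-stage embryos or the 330- and 340-minute embryos.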

Additional observations from a re-analysis of the deposited data

Results flagged for a closer look

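In 6 of 236 members the slope of the share on time differed between the 3 libraries, by an interaction term in the quasi-binomial fit (2.54%, against 2.89% of all tests of the table). Values are mean shares of the higher-location end in the first 4 and the last 4 embryos of a library that had a share (± SD), and slopes in log odds per position (± SE). The smallest p was that of CJA16579, with ends at 112 and 158 (adjusted p = 2.23e-05). Its share was 96.9% ± 2.35 in the last and 83.6% ± 11.5 in the first early embryos (slope 0.196 ± 0.0331), and 73.3% ± 22.8 in the last and 91.3% ± 5.45 in the first middle embryos (slope -0.0921 ± 0.0211). In the late library its slope was 0.0023 ± 0.0205.

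The other 5 had larger p-values. CJA04527 (adjusted p = 0.0338) had slopes of 0.106 ± 0.0322 in the early, -0.0684 ± 0.0343 in the middle and -0.0794 ± 0.0384 in the late library. CJA03759 (adjusted p = 0.0344) had slopes of 0.0965 ± 0.035 early, -0.0945 ± 0.029 middle and -0.0236 ± 0.0296 late. CJA18775 (adjusted p = 0.0493) had slopes of 0.109 ± 0.0342, -0.0902 ± 0.0337 and -0.0328 ± 0.0378 in the same order. CJA12731 (adjusted p = 0.0493) had slopes of 0.14 ± 0.0434, -0.0544 ± 0.0466 and -0.142 ± 0.0641. CJA27718 (adjusted p = 0.0338) ran the other way, at -0.249 ± 0.0663 early, 0.0553 ± 0.0392 middle and 0.143 ± 0.0722 late, over 10, 10 and 7 embryos. In these 6 members the early slope had the opposite sign to the middle slope. Barcode numbers ascend with time in the early library and descend in the middle one, so a slope with time and one with barcode number cannot be told apart there.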

How the results depend on the processing

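The counts of members called moved by more than 1.5 times under these settings. The trend over the course (48) gave 30 with depth weights, 24 by rank correlation, 1 by edgeR diffSpliceDGE, 2 with the library as covariate, and 1, 0 and 0 within the early, middle and late library. Middle against early (42) gave 7 with 8 embryos on each side of the border. Late against middle (9) gave 4 with at least 10 reads, 3 without shallow embryos, 2 without the 330- and 340-minute embryos, 2 with depth weights and 0 with 8 embryos on each side. The gene-level term (20) gave 10 with depth weights and 12 with the embryo axis of the next part as covariate. The axis itself (37) gave 0 and 0 on the next 2 axes, 20 when the axis was taken after window means only, and 22 without the 3 embryos highest on it. For single ends, dropping the low-count filter gave 369, 159 and 422 calls among 726 ends, against 131, 68 and 170 among 255 with it. Leaving out shallow embryos gave 105 calls in late against middle. The cause was not tested, save that single libraries, 8 embryos a side and higher read minima hold fewer embryos and no filter admits more ends.

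With the library as covariate, the slopes of CJA36188 and CJA32122 were 0.0118 and 0.0451, opposite to their trend, as was the early slope of CJA36188, 0.115. On axis 2 the slope of CJA00442 was -0.015, and on axis 3 those of CJA00442 and CJA03982 were -0.124 and 0.195. Of 261 further checks of named members, 216 kept direction and call, 39 lost the call and 6 reversed. The count of late against early (49) and of main ends above 50% in 90% of embryos (214; range 164 to 226) kept within 1.5 times in every alternative run. Depth limits the shares: pairs with 5 to 9 reads in an embryo had a median residual of 12.9 points. No paired analysis was possible because each library is 1 window and its embryos share no replicate numbers with those of another. The depth weights, the axis, the embryos on each side of a border and the library step were chosen after seeing the data.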

Other observations

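Embryos of neighbouring ages differed along an axis of gene levels on which 37 members also differed in share. This first axis was taken from the log2 CPM of the 1241 genes with 1 listed end, after removing window means and slopes, in the 32 embryos that were not shallow. It held 25.3% of the remaining variance, against 9.61% and 8.75% for the next axes, and its Spearman correlation with the log2 read total was -0.25. The embryos with the highest values were those at 240 minutes, 350 minutes and of 2 cells, 1 from each library. With the window in the model, the shares of 37 of 291 members were called on this axis (14 positive, 23 negative), 12.7% against 18.6% of all tests. Depth weights gave 30, of which 28 were shared. On axes 2 and 3, 0 members were called by the same quasi-binomial test, with 21 and 20 at an unadjusted p under 0.05.

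The largest values were those of CJA03982, at -1.74 ± 0.22 log odds of the higher-location end per SD of the axis (SE; adjusted p = 2.9e-08), and of CJA15600, with ends at 5042 and 5116, at 1.16 ± 0.16 (adjusted p = 4.73e-07). In CJA03982 the higher-location end had 9.88% in the 240-minute, 5.19% in the 350-minute and 8.91% in the 2-cell embryo, and 85.2% in the 200-minute embryo. In CJA15600 the same embryos had 97.7%, 89.7% and 100%, and the 200-minute embryo 63.4%. CJA00442 had 0.76 ± 0.091 and CJA14330 -1.10 ± 0.33 (adjusted p = 9.84e-07 and 0.0168). Without the 3 embryos highest on the axis 22 members were called, and CJA14330 was not (adjusted p = 0.068). Of the 48 members with a trend over the course, 10 were among the 37, and of the 20 called for gene level, 11 were. With the axis as a covariate, the gene-level term of CJA03982 was not called (adjusted p = 0.61). The axis was defined from the data after they were seen, and what distinguishes these embryos is not given by the labels.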
